A study of Arabidopsis thaliana with 12 samples.

Results

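Loss of CBP20 was examined as the contrast of the 3 *cbp20* libraries with the 3 WT libraries, 6 of the 12 RNA-seq libraries of the series, taken by their genotype labels alone. Every library came from poly(A) RNA of whole Arabidopsis seedlings of ecotype Col-0, 16 days old, raised on MS medium in constant light without any treatment and gathered on ice, with another pool of plants for each replicate. The other libraries are 3 of *cbp80* and 3 of *se-1*, so that all 3 mutants share the same WT libraries. The labels name no allele of *cbp20*, the methods of the study list *cbp20-1*, and the contrast thus rests on 1 mutant line.

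CBP20 is the small subunit of the nuclear cap-binding complex (CBC). It holds the cap of new RNA polymerase II transcripts together with its large partner CBP80, encoded by *ABH1*, and the complex then takes part in splicing, export and the processing of primary microRNA transcripts. In Arabidopsis the CBC works alongside the zinc finger protein SERRATE (SE), and plants without a working CBC are known for serrated leaves, hypersensitivity to abscisic acid and drought tolerance.

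The labels were checked on *CBP20* itself (AT5G44200, chromosome 5, 17801737 to 17804203 in TAIR10, a gene with 8 introns). It had 12.6, 13.8 and 11.4 CPM in *cbp20*, against 36.8, 34 and 40.1 CPM in WT. CPM is the read count scaled to a common library size with TMM factors. The log2 fold change was -1.55 (SE 0.09, edgeR adjusted p = 5.37e-08). Reads of the gene were thus still present in the mutant, and no *cbp20* library came near a WT library. *ABH1* had 51.7, 48.2 and 44.7 CPM in *cbp20* and 36.5, 44.4 and 42.6 CPM in WT, which did not pass the test (log2 0.23, edgeR adjusted p = 0.0597). *SE* had 94.6, 87.5 and 84.4 CPM in *cbp20* and 82.6, 89.5 and 83.2 CPM in WT (log2 0.06, edgeR adjusted p = 0.543).

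The libraries held 18565569 to 27068656 counted read pairs in *cbp20* and 20292037 to 21964939 in WT. A gene was tested when at least 3 of the 6 libraries had 10 or more counts, and called when the adjusted p of edgeR's quasi-likelihood test (Benjamini-Hochberg over all tested genes) was under 0.05. A count of 3, taken as the floor of detection, is 0.111 to 0.162 CPM in these libraries. The reads carry no molecular identifiers, so floors cover counting error only. Few markers of seeds and pollen, organs that such seedlings lack, passed the filter on low counts: 1 of 12 seed markers and 0 of 3 pollen markers. The seed markers summed to 7.13, 2.25 and 2.68 CPM in *cbp20* and 2.95, 2.08 and 2.03 CPM in WT. With no filter or by DESeq2 on the 6 libraries, up to 4 of them were called higher.

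Of 20475 genes tested, 2090 (10.2%) were higher in *cbp20* than in WT and 1941 (9.48%) were lower, 4031 (19.7%) in all. Most changes were small, the median log2 fold change being 0.48 for higher and -0.46 for lower genes. At least 2-fold changes were found for 343 higher (1.68%) and 265 lower genes (1.29%). In whole seedlings, fewer cells of a type and less RNA per cell cannot be told apart. In 7308 genes (35.7%) the 3 *cbp20* libraries all lay on the same side of the 3 WT libraries. Scaled by library size alone the balance turned, with 1676 genes higher and 2608 lower, so that 39.1% rather than 51.8% of the calls were higher, and the median of all genes moved from -0.001 to -0.047 on the log2 scale. The gene lists described here are read against these shares. Where a list is given with a count for a single direction, edgeR called 0 of its members in the other, with 0 to 4 members at an unadjusted p under 0.05 and 0 or 1 call by DESeq2.

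Genes without introns, 3146 of those tested, were higher in 11.5% and lower in 11.6% of cases, and genes with over 5 introns, 7086 of those tested, in 9.99% and 7.21%. The 2-fold calls differed more, with 3.31% higher and 2.64% lower among intronless genes against 1.04% and 0.508% among genes with over 5 introns. Intronless genes include *MIRNA* and other non-coding genes. Among protein-coding genes alone, the 2900 without introns had 1.79% higher and 2.52% lower 2-fold calls, against 1.03% and 0.495% for those with over 5 introns. The intronless genes were also lower in level, with a median of 6.24 CPM against 28.9 CPM, and the lowest of 5 equal groups of genes by level had 5.32% and 4.30% of 2-fold calls. The part of expression level in the difference between the intron classes was not tested.

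**Figure D1:**
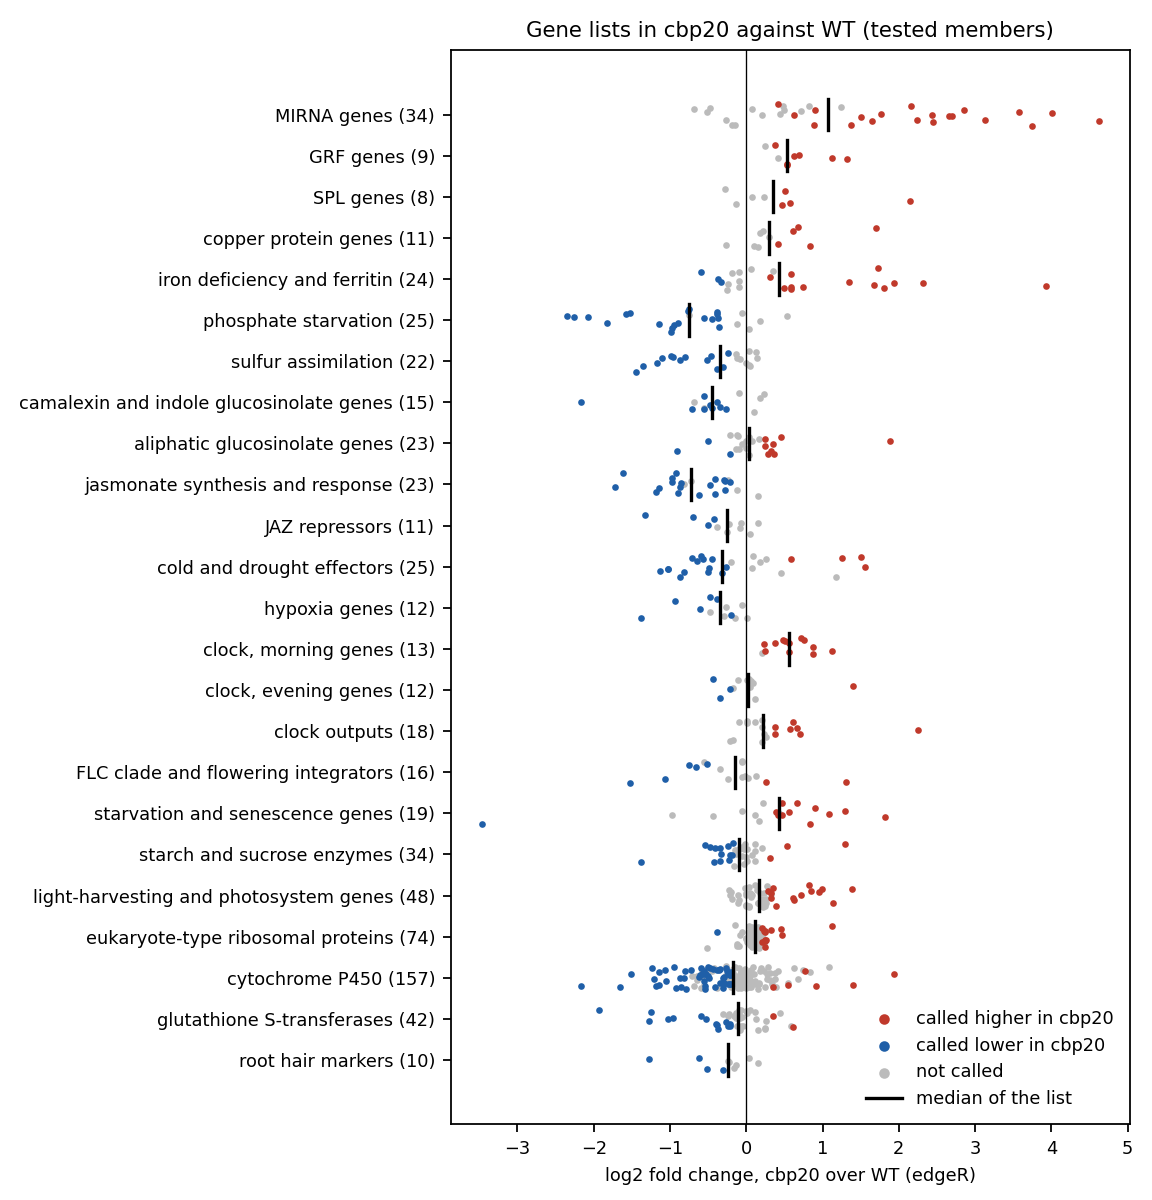
Log2 fold change (x axis, *cbp20* over WT) of the tested members of 24 gene lists, 1 row per list and 1 point per gene, with the median of each list as a bar. Red points were higher, blue points lower and grey points not called by edgeR at an adjusted p under 0.05. *MIRNA*, *GRF*, morning clock and iron genes lie mostly to the right, and phosphate starvation, jasmonate and sulfur genes mostly to the left.

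MicroRNAs are cut by DICER-LIKE1 from long capped primary transcripts, the products of *MIRNA* genes, and the CBC is one of the helpers of this step. An unprocessed primary transcript keeps its poly(A) tail and is caught in a poly(A) library, so the values that follow are those of primary transcripts and not of mature microRNAs. The mature sequences of the *MIRNA* genes with the clearest changes were read from the RefSeq genome (TAIR10.1), with the seed, bases 2 to 8, in capitals. They are shown because they group the changed genes into families with shared targets.
miR156a-5p, miR156c-5p and miR156d-5p: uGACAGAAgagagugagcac
miR157a-5p and miR157c-5p: uUGACAGAagauagagagcac
miR158a-3p: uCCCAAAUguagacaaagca
miR168a-5p: uCGCUUGGugcaggucgggaa
miR171a-3p: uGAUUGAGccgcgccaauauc
miR171c-3p: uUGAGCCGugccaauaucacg
miR167a-5p: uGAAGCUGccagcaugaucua
miR156 and miR157 pair with *SPL* mRNAs, miR168 with *AGO1*, miR171 with *HAM* mRNAs and miR167 with *ARF6* and *ARF8*. The miR156 genes carry the same mature sequence at chromosome 2, 10676534 to 10676553, chromosome 4, 15415491 to 15415510, and chromosome 5, 3456713 to 3456732, all on the minus strand.

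Of 325 annotated *MIRNA* genes, 174 had 0 counts in all 6 libraries and 34 were tested. Of these 34, 20 were higher in *cbp20*, 16 of them at least 2-fold, and the median log2 fold change was 1.07, beside -0.001 for all genes. The filter bears on this count and on the median, so neither is read as an effect on *MIRNA* genes as a whole. In 7 genes only the *cbp20* libraries reached 10 counts, so that they had to differ in order to be tested, and 5 of them were called (*MIR158a*, *MIR171a*, *MIR164b*, *MIR161* and *MIR399c*). The values of these 5 are given as a description, and none of them could be tested when a *cbp20* library was left out. Among the 19 with 10 counts in each of the 6 libraries, 10 were called. Without *cbp20* replicate 1 the number called fell to 13, and without *cbp20* replicate 3 also to 13. The fit of all 12 libraries gave 31, but over the *MIRNA* genes that passed its own filter. That filter also lets in genes through counts in *cbp80* or *se-1*, so the 31 is not a share of the 34.

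*MIR168a* (chromosome 4, 10578635 to 10578772), whose microRNA guides the cleavage of *AGO1* mRNA, had 10.1, 9.16 and 13.8 CPM in *cbp20*, against 0.952, 0.726 and 0.738 CPM in WT (log2 3.75, SE 0.21, edgeR adjusted p = 5.22e-08). *MIR156c*, a precursor of the microRNA that holds plants in the juvenile phase, had 11.2, 12 and 9.52 CPM in *cbp20* and 1.13, 1.45 and 1.15 CPM in WT (log2 3.13, edgeR adjusted p = 1.98e-08). In both genes every *cbp20* library stood several-fold above every WT library. *MIR158a* reached 5.18, 3.86 and 5.09 CPM in *cbp20*, against 0.227, 0.0968 and 0.231 CPM in WT, where WT lay close to the floor of detection (log2 4.62). *MIR171a* had 3.49, 2.76 and 2.68 CPM in *cbp20* and 0.317, 0.194 and 0.231 CPM in WT (log2 3.57). Both were tested through the *cbp20* libraries alone, so these values are a description.

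All 5 tested genes of the miR156 and miR157 family were called higher. *MIR156a* had 4.58, 4.65 and 3.78 CPM in *cbp20* and 0.861, 1.07 and 0.831 CPM in WT, and *MIR156d* had 1.39, 1.79 and 1.97 CPM in *cbp20* and 0.227, 0.194 and 0.508 CPM in WT. *MIR157c*, the most abundant *MIRNA* transcript among those called, had 26.7, 24.3 and 26.0 CPM in *cbp20* and 8.70, 6.58 and 7.29 CPM in WT (log2 1.77, edgeR adjusted p = 5e-08). *MIR157a* had 2.78, 2.39 and 2.13 CPM in *cbp20* and 0.272, 0.581 and 0.277 CPM in WT. In these 4 genes, too, the lowest *cbp20* library lay above the highest WT library. *MIR171c* (log2 2.45), *MIR167a* (log2 2.16) and *MIR169a* (log2 2.85), from families that target *HAM*, *ARF* and *NF-YA* genes, rose as well. Their edgeR adjusted p were 1.70e-06, 2.23e-05 and 0.000177. *MIR164b* (log2 2.66), of a family that targets *NAC* genes, is one of those tested through the *cbp20* libraries alone. *MIR161*, a gene near the floor, had 0.413, 0.782 and 0.602 CPM in *cbp20*, against 0.0906, 0 and 0 CPM in WT.

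**Figure D2:**
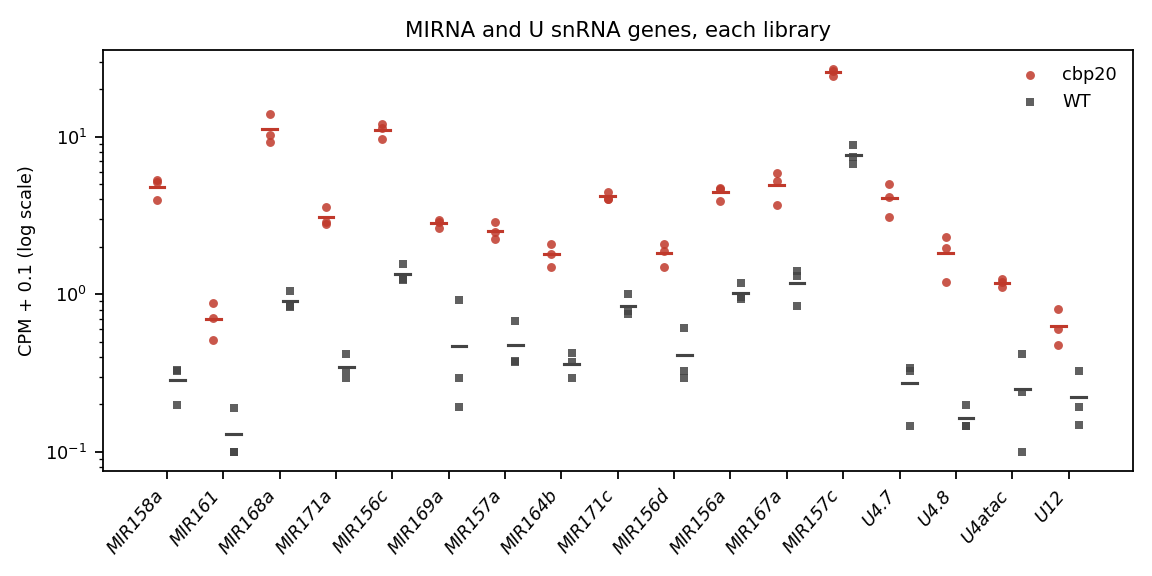
CPM plus 0.1 on a log axis (y) of 13 *MIRNA* genes and 4 spliceosomal snRNA genes (x) in the 3 *cbp20* libraries (left of each pair) and the 3 WT libraries (right), with a bar at each group's mean. In *MIR168a* the *cbp20* libraries lie between 9.16 and 13.8 CPM and the WT libraries between 0.726 and 0.952 CPM, and in each of the *MIR156* genes the groups stay apart.

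The mRNAs that these microRNAs pair with were described list by list, since more precursor need not mean more microRNA. SPL factors, the miR156 targets that drive the change to the adult phase, carry the same 20 bases in *SPL9*, *SPL10* and *SPL13A*. They are shown to set against miR156, with the bases that pair with its seed in capitals and 1 unpaired position.
*SPL9*, *SPL10* and *SPL13A*: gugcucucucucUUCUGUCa
These sites lie at chromosome 2, 17589066 to 17589085, chromosome 1, 9505541 to 9505560, and chromosome 5, 20582738 to 20582757. Of 8 *SPL* genes tested, 4 were higher in *cbp20*, with a median log2 fold change of 0.35. *SPL13A* had 1.69, 1.79 and 1.04 CPM in *cbp20*, against 0.227, 0.436 and 0.369 CPM in WT (log2 2.15, edgeR adjusted p = 0.000451). *SPL9* had 7.32, 7.59 and 6.57 CPM in *cbp20* and 5.03, 4.99 and 4.52 CPM in WT (log2 0.57, edgeR adjusted p = 0.00433), and *SPL10* 20.0, 19.0 and 19.0 CPM in *cbp20* and 14, 12.8 and 14.9 CPM in WT (log2 0.47, edgeR adjusted p = 0.000975). *SPL13A* had under 10 counts in each WT library, was thus tested through the *cbp20* libraries alone and had to differ. *SPL11* was the fourth (log2 0.51), while *SPL5* and *SPL2* (AT5G43270) had log2 values of -0.28 and -0.13 and were not called. Without *cbp20* replicate 1, only 2 *SPL* genes were called, *SPL11* not among them.

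GRF factors promote cell proliferation in leaves, and most but not all of them are targets of miR396. Of these lists theirs had the largest share of higher members, 7 of 9, with a median log2 fold change of 0.54. Sites for miR396 were not searched in these genes, so the 7 are not a count of targets. *GRF5* (AT3G13960) had 10.7, 11.7 and 10.9 CPM in *cbp20* and 6.71, 7.02 and 6.97 CPM in WT (log2 0.69, edgeR adjusted p = 0.000235), and *GRF7* (AT5G53660) 1.99, 2.58 and 1.59 CPM in *cbp20* and 0.952, 1.11 and 0.785 CPM in WT (log2 1.12, edgeR adjusted p = 0.00624). *GRF1* (AT2G22840) rose by log2 0.54 and *GRF9* (AT2G45480) by log2 0.63, and in all 4 genes the groups did not overlap. Copper proteins, targets of miR397, miR398, miR408 and miR857, were higher in 5 of 11 cases, with a median of 0.30. The laccase genes *IRX12* and *LAC17*, which act in lignin formation, had log2 values of 0.83 and 0.68 (edgeR adjusted p = 2.50e-05 and 0.000107). The copper/zinc superoxide dismutase genes *CSD1* and *CSD2* rose by log2 0.41 and 0.61, although *CSD1* lost its call without *cbp20* replicate 1.

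Other families of targets changed in few members. Among ARF auxin response factors, *ARF8* had 72.0, 65.1 and 74.0 CPM in *cbp20* and 51.0, 50.8 and 52.7 CPM in WT (log2 0.45, edgeR adjusted p = 0.00022), and *ARF6* rose by log2 0.32, while *ARF2* was lower by a call that 4 of the 6 fits leaving out a library (WT replicate 2 or 3, *cbp20* replicate 1 or 3) lost. Of the HD-ZIP III genes of leaf polarity, *PHB* (log2 0.36) and *ATHB-15* (log2 0.34) rose, and *PHV* (log2 0.10) and *REV* (log2 0.10) were not called. *NAC1* (log2 0.36) was the only called gene among 5 *NAC* targets of miR164. Of 6 *AP2*-like genes, *SNZ* (log2 0.30) rose. None of the 7 tested *TCP* and *GAMYB* targets or the 4 auxin receptors was called by edgeR, with 1 of each at an unadjusted p under 0.05, and DESeq2 on all 12 libraries called 1 auxin receptor. *NF-YA7* (log2 -0.46) was the only one of 13 *NF-YA* and *HAM* genes called, and was lower. Sites for miR169 and miR171 were not searched in these genes, so the 13 are not a count of targets. Of 5 precursors of trans-acting siRNAs tested, *TAS2* was lower (log2 -0.46, edgeR adjusted p = 0.0026) and *TAS3* higher (log2 0.36, edgeR adjusted p = 0.0228), the call of *TAS3* being lost without WT replicate 2 or 3 or *cbp20* replicate 1 or 3.

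Few genes of the machinery around these RNAs were called. Of 21 genes for microRNA processing and function, *CPL1*, a phosphatase that acts on the dicing factor HYL1, was the only one called (38.6, 37.6 and 43.3 CPM in *cbp20*, 32.9, 31.2 and 31.9 CPM in WT, log2 0.31, edgeR adjusted p = 0.00603). None of the 8 cytoplasmic cap-binding factors, which recognise the cap at translation, was called by edgeR, with 1 at an unadjusted p under 0.05, 0 by DESeq2 on the 6 libraries and 1 on all 12. Of 20 SR splicing factors 2 were higher, among them *SCL28* (2.89, 2.21 and 2.46 CPM in *cbp20*, 1.22, 1.07 and 1.34 CPM in WT, log2 1.06). The other, *RSZ21* (log2 0.21, edgeR adjusted p = 0.048), was called in only 1 of the 6 fits that left out a library, and neither under library size scaling nor by DESeq2.

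Other short and non-coding RNAs were read by type. The 4 spliceosomal snRNA genes that were tested were called higher in *cbp20*, but all 4 had passed the filter through the *cbp20* libraries alone and so had to differ. *U4.7* had 4.05, 4.88 and 3.01 CPM in *cbp20*, against 0.227, 0.242 and 0.0462 CPM in WT, and *U4.8* had 1.88, 2.21 and 1.09 CPM in *cbp20*, against 0.0453, 0.0968 and 0.0462 CPM in WT. *U4atac*, of the minor spliceosome, had 1.01, 1.15 and 1.09 CPM in *cbp20* and 0.317, 0 and 0.138 CPM in WT, and *U12* had 0.375, 0.506 and 0.711 CPM in *cbp20* and 0.227, 0.0484 and 0.0923 CPM in WT, a call lost without WT replicate 2 or WT replicate 3. These RNAs have no poly(A) tail in their mature form, and their WT values lie at or near the floor. Of 40 snoRNA genes 11 were higher, 3 of them among the 19 with 10 counts in each library. Another 5 of the 11 had reached 10 counts in the *cbp20* libraries alone. Of 205 lncRNA genes 34 were higher, 14 of them tested through the *cbp20* libraries alone, and 11 lower. Among the 113 lncRNA genes with 10 counts in each library 10 were higher and 6 lower, shares near those of all genes. Of the 102 genes annotated as other RNA 13 were higher and 21 lower.

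Some of these RNAs lie beside *MIRNA* genes. Of the 307 lncRNA and other RNA genes tested, 14 start or end within 2000 bases of a *MIRNA* gene. Of these 14, 9 were at least 2-fold higher in *cbp20*, beside 35 of all 307. The 307 include 16 lncRNA and 3 other RNA genes that reached 10 counts in the *cbp20* libraries alone and so had to differ. Neither the 9 nor the 35 were split by this, so they are given as a description. *AT4G06880*, 406 bases from *MIR168a* on the other strand, had 18.5, 21.2 and 25.0 CPM in *cbp20*, against 1.95, 2.37 and 2.86 CPM in WT (log2 3.16, edgeR adjusted p = 1.36e-08). *AT4G30975*, which overlaps *MIR156b*, had 9.23, 9.16 and 11.3 CPM in *cbp20* and 1.27, 1.4 and 1.43 CPM in WT (log2 2.84). The protein-coding *IQD20*, a calmodulin-binding protein gene 479 bases from *MIR171a*, had 12.8, 13.7 and 11.5 CPM in *cbp20* and 2.95, 2.57 and 1.98 CPM in WT (log2 2.34, edgeR adjusted p = 9.73e-08). Counting did not use strand, so reads of a *MIRNA* transcript that runs past its annotated ends cannot be told from those of such a neighbour. Where annotated genes overlap, as *AT4G30975* and *MIR156b* do, pairs that fit both were left out of the counts.

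Iron genes were higher. Iron-starved roots of Arabidopsis switch on the bHLH factors of subgroup Ib, which act with FIT on the ferric reductase FRO2 and the iron transporter IRT1. Of 24 iron genes tested, 13 were higher and 3 lower in *cbp20*, with a median log2 fold change of 0.42. *IRT1* had 30.9, 27.3 and 23.8 CPM in *cbp20*, against 8.79, 8.86 and 5.77 CPM in WT (log2 1.81, SE 0.14, edgeR adjusted p = 7.79e-07). *FRO2* had 15.1, 13.2 and 13.2 CPM in *cbp20* and 5.48, 6.78 and 4.15 CPM in WT (log2 1.34, edgeR adjusted p = 1.63e-05), and *CYP82C4*, a P450 that makes the iron chelator sideretin, had 9.05, 7.22 and 6.18 CPM in *cbp20* and 2.27, 2.03 and 1.62 CPM in WT (log2 1.94). In all 3 genes the *cbp20* libraries lay above the WT libraries without overlap.

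The bHLH factors of subgroup Ib followed, at low levels and with spread among the *cbp20* libraries. *BHLH100* had 2.25, 5.15 and 1.26 CPM in *cbp20* and 0.317, 0.0484 and 0.185 CPM in WT (log2 3.93, SE 0.61, edgeR adjusted p = 0.0004), and *bHLH39* 6.79, 10.8 and 4.16 CPM in *cbp20* and 1.90, 1.02 and 1.43 CPM in WT (log2 2.32). With under 10 counts in each WT library, *BHLH100* was tested through the *cbp20* libraries alone and had to differ. *BHLH101* had 3.19, 4.32 and 3.45 CPM in *cbp20* and 1.5, 0.92 and 0.969 CPM in WT (log2 1.68). *bHLH38* (log2 1.73) was called although its groups overlapped, lost its call without *cbp20* replicate 1, and 35.7% of its exon bases overlap other genes. Further members were *FRO3* (log2 0.74), *OPT3*, the phloem iron transporter (log2 0.58), *ORG1* (log2 0.58), the ubiquitin ligase gene *BTS* (log2 0.50) and *PYE* (log2 0.31). The nicotianamine synthase *NAS1* went the other way, with 34.8, 32.2 and 38 CPM in *cbp20* and 59.4, 53.2 and 45 CPM in WT (log2 -0.59, edgeR adjusted p = 0.000534). So did *AT3G13610* (log2 -0.37, edgeR adjusted p = 0.00492) and the ferritin gene *FER4* (log2 -0.33). The ferritin gene *FER1* had 159, 95.3 and 152 CPM in *cbp20* and 156, 166 and 141 CPM in WT and was not called.

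Phosphate starvation genes were lower. When phosphate is short, the MYB factor PHR1 binds the P1BS element and switches on phosphate transporters, phosphatases, SPX proteins and galactolipid and sulfolipid synthesis, and the RNAs *IPS1* and *AT4* (here AT5G03545) bind miR399 without being cut. Of 25 genes tested, 19 were lower in *cbp20*, 7 of them at least 2-fold, with a median log2 fold change of -0.75. *AT5G03545* had 20.4, 36.5 and 33.1 CPM in *cbp20*, against 111, 154 and 191 CPM in WT (log2 -2.35, SE 0.20, edgeR adjusted p = 1.94e-06). *IPS1* had 2.93, 3.04 and 3.45 CPM in *cbp20*, against 10.7, 17.2 and 17 CPM in WT (log2 -2.26, SE 0.18, edgeR adjusted p = 1.24e-06). Both RNAs were lower in every *cbp20* library than in any WT library.

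The miR399 sites of these RNAs are shown beside miR399c, with the seed of the microRNA and the bases that pair with it in capitals. Each site leaves 3 bases bulged in the middle and 3 positions unpaired.
miR399c-3p: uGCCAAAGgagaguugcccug
*IPS1*: uugggcaacuucuaucCUUUGGCa
*AT5G03545*: uugggcaacuucgaucCUUUGGCa
They lie at chromosome 3, 3051224 to 3051247, and chromosome 5, 895149 to 895172. The *MIR399c* precursor itself was higher at a low level, with 0.563, 0.69 and 0.711 CPM in *cbp20* and 0.272, 0.145 and 0.185 CPM in WT (log2 1.65, edgeR adjusted p = 0.00884). It is one of the genes tested through the *cbp20* libraries alone, so its call was fixed in direction by the filter. *PHO2*, the ubiquitin-conjugating enzyme gene that miR399 targets, had 182, 192 and 171 CPM in *cbp20* and 217, 226 and 259 CPM in WT (log2 -0.37, edgeR adjusted p = 0.00361).

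Among protein-coding members, the phosphatase gene *PS2* (AT1G73010) had 5.89, 6.35 and 8.75 CPM in *cbp20* and 23.1, 27.7 and 36.2 CPM in WT (log2 -2.07, edgeR adjusted p = 1.23e-06). *SPX1*, a phosphate-dependent inhibitor of PHR1, had 39.5, 51.0 and 46.0 CPM in *cbp20* and 104, 134 and 154 CPM in WT (log2 -1.52, edgeR adjusted p = 1.24e-06), and *SPX3* was at 0.976, 1.01 and 0.711 CPM in *cbp20* and 2.36, 2.91 and 4.48 CPM in WT (log2 -1.82). Lipid remodelling genes were among them, with *SQD1* at 79.2, 81.0 and 85.8 CPM in *cbp20* and 127, 152 and 181 CPM in WT (log2 -0.90), *MGDC* at log2 -1.14 and *MGD2* at log2 -0.99. The transporter genes *PHT1;2* (log2 -1.58), *PHT1;4* (log2 -0.76) and *PHT1;1* (log2 -0.38) fell too. *PHT1;1* and *PHT1;2* are near-identical copies, and read pairs that fit both were not counted, so their values are uncertain. *PHR1* (AT4G28610) itself had 68.1, 68.4 and 64.4 CPM in *cbp20* and 67.3, 65.9 and 63.1 CPM in WT and was not called (log2 0.03, edgeR adjusted p = 0.75).

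P1BS was searched as GNATATNC, which reads the same on both strands, in the 300 bases before each gene. It was present in 5 of the 19 lower phosphate genes (26.3%), in 0 of the 6 that were not called, and in 1340 of 20346 genes of the same window (6.59%). The 5 windows show how the element varies, with the match in capitals and each read 5′ to 3′ on the gene's strand.
*PS2*, chromosome 1, 27466547 to 27466576: tttgggtaacgGAATATTCttctcttattc
*SPX3*, chromosome 2, 18606309 to 18606338: gctaaagctaaGCATATCCgctttcatatt
*AT5G03545*, chromosome 5, 894545 to 894574: tttggtaattgGCATATTCcttttagaaga
*MGD2*, chromosome 5, 6896433 to 6896462: gttgttatatactactGAATATTCttttgt
*PHT1;2*, chromosome 5, 17415645 to 17415674: aatataaatatGGATATACccttaagattc
A match of these letters is a description and no evidence that the factor binds there.

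Several iron and phosphate genes act in the root, and root hair markers were set beside them. Of 10 markers 4 were lower in *cbp20*, such as the peroxidase gene *RHS19* (14.8, 12.3 and 13.6 CPM in *cbp20*, 23.7, 19.8 and 19.2 CPM in WT, log2 -0.62), and the median log2 fold change was -0.24. Their summed level was 270.2, 288 and 308 CPM in *cbp20* and 409.5, 308 and 258 CPM in WT, so that the sums overlapped, and the list of photosystem genes summed to 87597, 98007 and 83215 CPM in *cbp20* and 78072, 73579 and 73813 CPM in WT. The part of root and leaf shares in these results was not tested.

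**Figure D3:**
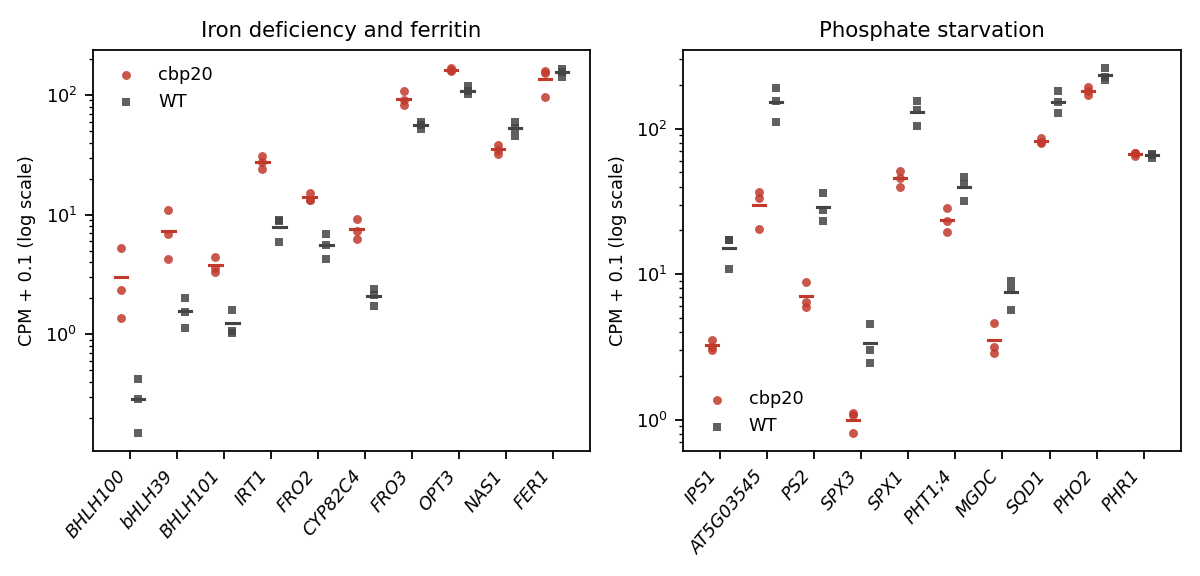
CPM plus 0.1 on a log axis (y) of 10 iron genes (left panel) and 10 phosphate starvation genes (right panel) in the 3 *cbp20* libraries (left of each pair) and the 3 WT libraries (right), with a bar at each group's mean. *IRT1* lies between 23.8 and 30.9 CPM in *cbp20* and between 5.77 and 8.86 CPM in WT, and *IPS1* between 2.93 and 3.45 CPM in *cbp20* and between 10.7 and 17.2 CPM in WT.

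Genes of sulfur uptake and assimilation, and of the marker set of sulfur starvation, were lower in 13 of 22 cases, with a median log2 fold change of -0.34. *ATSDI1*, a repressor of glucosinolate synthesis that rises when sulfur is short, had 5.37, 4.28 and 5.09 CPM in *cbp20*, against 14.2, 12.8 and 13 CPM in WT (log2 -1.44, edgeR adjusted p = 1.02e-06). *LSU1*, of the LSU family of small proteins, had 6.27, 6.49 and 6.68 CPM in *cbp20* and 17.1, 15.3 and 11.4 CPM in WT (log2 -1.17), and its relatives *LSU2*, *LSU3* and *LSU4* had log2 values of -0.80, -0.87 and -0.99. The APS reductase genes *APR1* (log2 -0.38), *APR2* (log2 -0.30) and *APR3* (log2 -0.52) fell by less.

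Indole glucosinolates and camalexin are sulfur-rich defence compounds made from tryptophan. Of 15 genes tested, 9 were lower, with a median of -0.45. The P450 genes of the entry steps, *CYP79B2* (79.3, 79.6 and 87.5 CPM in *cbp20*, 117, 121 and 125 CPM in WT) and *CYP83B1* (150.5, 152 and 158 CPM in *cbp20*, 219, 232 and 229 CPM in WT), both had log2 values of -0.56. *CYP71A12* showed a larger change at a low level, with 1.2, 1.15 and 1.59 CPM in *cbp20* and 3.26, 7.89 and 6.42 CPM in WT (log2 -2.17, edgeR adjusted p = 0.000151). The MYB regulators *MYB51* (log2 -0.71) and *MYB34* (log2 -0.45) were also lower.

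Aliphatic glucosinolates, made from methionine, did not share this direction as a group: 8 of 23 genes were higher and 3 lower, and the median was 0.03. *MYB76*, a regulator of this branch, had 14, 13.8 and 14.3 CPM in *cbp20*, against 3.67, 3.83 and 3.83 CPM in WT (log2 1.89, SE 0.10, edgeR adjusted p = 3.80e-08). The P450 gene *CYP83A1* rose by log2 0.35, while the oxygenase *FMO GS-OX2* (5.71, 5.89 and 5.09 CPM in *cbp20*, 9.56, 10.5 and 11.4 CPM in WT, log2 -0.91) and the sulfotransferase *SOT17* (log2 -0.50) fell.

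Jasmonate genes were lower in 18 of 23 cases, with a median log2 fold change of -0.72. Jasmonate, a lipid hormone of wounding and insect defence, is made from linolenic acid by lipoxygenases, AOS, AOC and OPR3, joined to isoleucine by JAR1, and read by COI1 and the JAZ repressors. *LOX2* had 352, 301 and 335 CPM in *cbp20*, against 1033, 1030.4 and 962 CPM in WT (log2 -1.62, SE 0.08, edgeR adjusted p = 1.52e-08). *AOS* had 88.6, 102 and 93.9 CPM in *cbp20* and 174, 172 and 175 CPM in WT (log2 -0.87, edgeR adjusted p = 6.03e-07), and *AOC2* had 109, 121 and 93.7 CPM in *cbp20* and 217, 241 and 179 CPM in WT (log2 -0.97). Later steps fell by less, with *OPR3* at log2 -0.48 and *JAR1* at log2 -0.29. The whole list summed to 1305, 1332 and 1311 CPM in *cbp20* and 2430.1, 2491 and 2357 CPM in WT.

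The response genes followed. *VSP2*, a vegetative storage protein and the usual reporter of the pathway, had 17.3, 16.7 and 14.9 CPM in *cbp20* and 56.1, 57.2 and 49.1 CPM in WT (log2 -1.72, edgeR adjusted p = 1.33e-08), and its close copy *VSP1* had 5.89, 8.14 and 5.31 CPM in *cbp20* and 14.5, 14.1 and 15.2 CPM in WT (log2 -1.18). The factor *MYC4* was lower by log2 -0.41. Of 11 *JAZ* repressor genes, 4 were lower, among them *JAZ5* (2.70, 2.71 and 3.61 CPM in *cbp20*, 5.48, 8.42 and 8.63 CPM in WT, log2 -1.33) and *JAZ6* (39.5, 43.9 and 43.2 CPM in *cbp20*, 64.7, 68.7 and 71.6 CPM in WT, log2 -0.70). In all 3 steps of synthesis named with their values and in both storage proteins, the groups did not overlap.

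Cold and drought effectors were lower in 14 and higher in 4 of 25 cases, with a median of -0.32. All seedlings had been collected on ice, so that the WT values are not those of plants that met no cold. *COR15A*, a chloroplast membrane protectant, had 203, 132 and 134 CPM in *cbp20*, against 361, 323 and 342 CPM in WT (log2 -1.13, edgeR adjusted p = 3.53e-05), *KIN2* had 260.1, 240.5 and 384 CPM in *cbp20* and 541, 497 and 524 CPM in WT (log2 -0.82), and *RD20*, a caleosin, had 12.8, 12.4 and 10.8 CPM in *cbp20* and 23.8, 26.4 and 23.1 CPM in WT (log2 -1.02). The higher members were genes of late embryogenesis and abscisic acid response, such as *LTI65* (15.5, 20.5 and 10.6 CPM in *cbp20*, 6.62, 2.57 and 10.3 CPM in WT, log2 1.26, edgeR adjusted p = 0.0117), where the groups nearly met. Their number depended on the fit, with 0 higher members by DESeq2 on all 12 libraries, 1 by DESeq2 on the 6 libraries and 1 by edgeR on all 12.

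The *CBF* genes, first regulators of the cold response, were lower at low levels. *CBF2* had 2.89, 4.14 and 4.82 CPM in *cbp20* and 11.3, 7.99 and 11.9 CPM in WT (log2 -1.43, edgeR adjusted p = 9.19e-05), *DREB1A* had 3.19, 3.63 and 4.27 CPM in *cbp20* and 11.4, 6.83 and 8.08 CPM in WT (log2 -1.27), and *CBF1* had 3.34, 2.81 and 6.62 CPM in *cbp20* and 13.3, 7.46 and 11.6 CPM in WT (log2 -1.39). The 3 genes stand side by side and are alike in sequence, so that read pairs could be lost between them. Across *CBF*, *DREB* and stress *ERF* genes 7 of 23 were lower and 1 higher, a call that of the 6 fits leaving out a library only the one without WT replicate 2 kept. Of 8 C2H2 repressors, *RHL41* (log2 -1.03), *ZAT6* (log2 -0.69) and *STZ* (log2 -0.67) were lower, *STZ* without its call when WT replicate 3 or *cbp20* replicate 1 or 2 was left out.

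Hypoxia genes were lower in 6 of 12 cases (median -0.34). The sucrose synthase gene *SUS4* had 11.3, 13.1 and 12.4 CPM in *cbp20* and 20.6, 32.1 and 42.9 CPM in WT (log2 -1.38, edgeR adjusted p = 0.000182), and the alcohol dehydrogenase gene *ADH1* had 17.5, 23.4 and 23.4 CPM in *cbp20* and 28, 41.1 and 52.4 CPM in WT (log2 -0.93). The spread among the WT libraries was wide in both genes, and the groups did not overlap. *ERF71*, a hypoxia factor, was lower by log2 -1.76.

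Salicylic acid genes were split, with 7 of 19 lower and 2 higher (1 without WT replicate 1, 2 or 3 or *cbp20* replicate 1) and a median of -0.04. *ACD6*, an ankyrin protein that raises salicylic acid levels, had 177, 115 and 140.3 CPM in *cbp20* and 284, 278 and 256 CPM in WT (log2 -0.92, edgeR adjusted p = 7.80e-05), while *ALD1*, which acts in pipecolic acid synthesis, had 12.5, 12.6 and 9.25 CPM in *cbp20* and 5.03, 9.25 and 6.0 CPM in WT (log2 0.77), where the groups met. Of 57 *WRKY* genes 7 were higher and 4 lower, shares near those of all genes. *WRKY70* and *WRKY54* fell by log2 -0.64 and -0.61, and *WRKY22* rose by log2 1.03. The *WRKY* counts were unstable, with 4 higher without *cbp20* replicate 3 and 7 lower without WT replicate 1. The list of plant defensins and thionins was higher in 5 of 15 cases, with *THI2.2* at 36.7, 34.7 and 22.4 CPM in *cbp20* and 10.3, 9.88 and 9.69 CPM in WT (log2 1.66, edgeR adjusted p = 3.32e-06). The 5 include *PDF1* (AT2G42840, log2 0.48), a protodermal factor gene that shares the defensin symbol and is not of that family.

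Morning genes of the circadian clock were higher. The Arabidopsis clock pairs the morning MYB factors CCA1 and LHY with the evening gene *TOC1* and a wave of PRR repressors between them, and the seedlings had been grown in constant light. Of 13 morning genes, 12 were higher in *cbp20*, with a median log2 fold change of 0.56. *LHY* had 205, 186 and 174 CPM in *cbp20*, against 131, 132 and 142 CPM in WT (log2 0.48, edgeR adjusted p = 0.000261), and *CCA1* had 139, 124 and 108 CPM in *cbp20* and 92.5, 93.0 and 102 CPM in WT (log2 0.37, edgeR adjusted p = 0.0057). *RVE1*, which links the clock to auxin, had 83.6, 80.2 and 82.9 CPM in *cbp20* and 44.2, 42.9 and 48.0 CPM in WT (log2 0.87, edgeR adjusted p = 4.61e-07). *EPR1* (log2 1.12) and *AT3G54500*, also known as *LNK2* (log2 0.87), rose by like amounts, and in each of these 5 genes the groups did not overlap.

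Of 12 evening genes 1 was higher and 3 lower, with a median of 0.02. The lower ones numbered 1 without WT replicate 1, WT replicate 2 or *cbp20* replicate 1 and by DESeq2 on the 6 libraries, *BOA* and *PCL1* having lost their calls in 4 of the 6 fits each. *PRR5*, the afternoon repressor, was the higher one, with 94.8, 106 and 92.6 CPM in *cbp20* and 37.0, 35.0 and 39.2 CPM in WT (log2 1.4, SE 0.07, edgeR adjusted p = 1.98e-08). *PRR7* and *PRR9*, counted with the morning genes, both had log2 values of 0.56, *PRR9* without its call when *cbp20* replicate 1 was left out. The blue light receptor gene *FKF1* had 25.7, 33.9 and 26.6 CPM in *cbp20* and 40.2, 39.9 and 36.5 CPM in WT (log2 -0.44, edgeR adjusted p = 0.00485). *TOC1* (150.0, 152 and 158 CPM in *cbp20*, 146, 145 and 149 CPM in WT) and *GI* (44.0, 61.4 and 46.5 CPM in *cbp20*, 46.2, 47.7 and 52.5 CPM in WT) were not called. The evening element AAAATATCT, searched on both strands of the same 300-base windows, was found in 5 of 12 evening genes (41.7%), 1 of 13 morning genes and 590 of 20346 genes (2.9%).

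Clock outputs were higher in 7 of 18 cases (median 0.22). *CO*, the flowering regulator CONSTANS, had 4.8, 5.43 and 4.87 CPM in *cbp20* and 0.906, 0.968 and 1.29 CPM in WT (log2 2.25, edgeR adjusted p = 1.66e-06). A non-coding RNA that shares 5 bases with it, *AT5G15845*, had 3.75, 4.88 and 4.27 CPM in *cbp20* and 0.317, 0.436 and 0.785 CPM in WT (log2 3.05). In *CO*, 25.4% of the exon bases overlap other genes, and counting did not use strand. The B-box genes *COL5* (log2 0.70) and *STH* (log2 0.67) and *PIL6*, a phytochrome-interacting factor (log2 0.61), rose as well.

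Of 16 genes of the *FLC* clade and flowering, 5 were lower and 2 higher, with 1 higher without *cbp20* replicate 1, 2 or 3. *MAF1*, a floral repressor of this clade, had 16.9, 19.2 and 16.2 CPM in *cbp20*, against 35.3, 36.8 and 37.2 CPM in WT (log2 -1.06, edgeR adjusted p = 4.40e-07), and *AGL24*, a promoter of flowering, had 16.5, 16.1 and 16.4 CPM in *cbp20* and 24.9, 23.7 and 21.4 CPM in WT (log2 -0.51). *FLC* itself was low, with 0.526, 0.552 and 0.328 CPM in *cbp20* and 1.4, 1.31 and 1.43 CPM in WT (log2 -1.52), and 68.1% of its exon bases overlap other genes. The repressor *SVP* rose by log2 0.26. Only 3 of the 5 lower calls were made by DESeq2 on the 6 libraries and in each of the fits without WT replicate 2, *cbp20* replicate 1 or *cbp20* replicate 3.

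**Figure D4:**
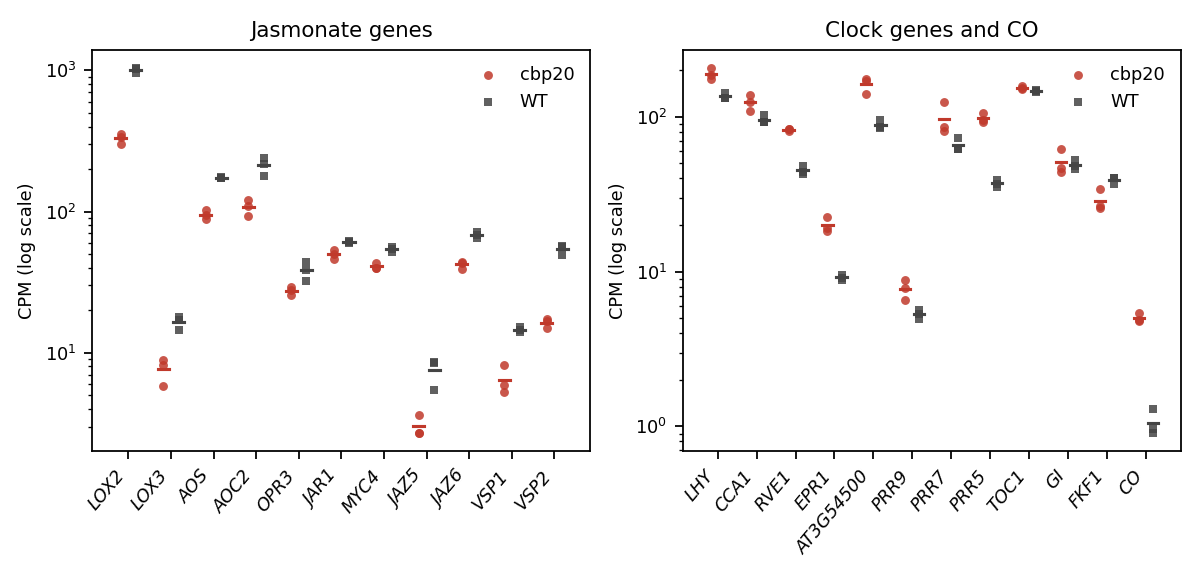
CPM on a log axis (y) of 11 jasmonate genes (left panel) and 12 clock genes and outputs (right panel). The 3 *cbp20* libraries lie left in each pair and the 3 WT libraries right, with a bar at each group's mean. *LOX2* lies between 301 and 352 CPM in *cbp20* and between 962 and 1033 CPM in WT, while *LHY* lies between 174 and 205 CPM in *cbp20* and between 131 and 142 CPM in WT.

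Genes of the photosystems and their antennae, the most abundant list, were higher in 14 of 48 cases with a small median of 0.16. The largest changes were in the light-harvesting antenna of photosystem II. *CAB2* had 3707, 4622 and 3329 CPM in *cbp20* and 1751, 1527 and 1999 CPM in WT (log2 1.14, edgeR adjusted p = 2.58e-05), and *LHCB2.1* had 855, 1037 and 819.6 CPM in *cbp20* and 467, 434 and 501 CPM in WT (log2 0.95, edgeR adjusted p = 8.33e-06). *LHCB2.2* (log2 0.99) and *LHCB2.3* (log2 1.38) rose by like amounts. These genes have near-identical copies, and the exons of *LHCB2.3* overlap other genes over 40.6% of their bases. Chlorophyll synthesis genes were higher in 7 of 21 cases, with *GUN5*, a subunit of magnesium chelatase, at 1631, 1596 and 1368 CPM in *cbp20* and 1172, 1161 and 1215 CPM in WT (log2 0.37). The count of chlorophyll genes fell to 4 under library size scaling and without *cbp20* replicate 1, and to 3 without WT replicate 1 or WT replicate 2.

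Of 57 cell cycle genes 9 were higher (median 0.17), led by the mitotic cyclin gene *CYCB2;3* with 34.3, 30.8 and 31.2 CPM in *cbp20* and 13.5, 14.2 and 15.3 CPM in WT (log2 1.16, edgeR adjusted p = 2.54e-07). That count was 5 by DESeq2 on the 6 libraries, 5 without WT replicate 2, 5 without WT replicate 3 and 4 without *cbp20* replicate 1. Ribosomal protein genes were higher in 13 of 74 cases and lower in 1, but with 6 higher under library size scaling, and with 7, 8, 8, 4 and 6 higher without WT replicate 1, 2 or 3 or *cbp20* replicate 1 or 3. *AT1G77940*, of the L30e family, stood apart from the rest with 85.1, 74.5 and 72.6 CPM in *cbp20* and 32.0, 36.7 and 37.5 CPM in WT (log2 1.13, edgeR adjusted p = 3.80e-07).

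In the cell wall and surface lists, *EXPB2*, a beta-expansin, had 2.36, 1.98 and 2.08 CPM in *cbp20* and 0.453, 0.339 and 0.415 CPM in WT (log2 2.4, edgeR adjusted p = 2.04e-05), and *EXPA1*, which loosens walls of growing cells, had 137, 130.0 and 127 CPM in *cbp20* and 94.5, 81.0 and 80.9 CPM in WT (log2 0.62). Expansins were higher in 5 of 19 cases. Aquaporins were higher in 9 of 26 (5 without WT replicate 2, 5 without *cbp20* replicate 2), with the tonoplast water channel *DELTA-TIP* at log2 0.60 and the plasma membrane channel *RD28* at log2 0.77. Arabinogalactan proteins were higher in 9 of 40 (4 without WT replicate 3, 4 without *cbp20* replicate 3). Wax and cutin genes were higher in 6 of 31, with 3 without WT replicate 2, and lower in 1, the elongase gene *KCS6* (log2 -0.23, edgeR adjusted p = 0.017), whose call was lost without WT replicate 3 or *cbp20* replicate 1 or 3. Among the higher ones *LACS1*, an acyl-CoA synthetase of wax formation, had 232, 218 and 227 CPM in *cbp20* and 145, 131 and 136 CPM in WT (log2 0.72, edgeR adjusted p = 2.86e-06).

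Developmental regulators held a few large changes. *KNAT2*, a meristem homeobox gene, had 5.29, 5.70 and 8.10 CPM in *cbp20*, against 1.5, 1.31 and 1.43 CPM in WT (log2 2.15, edgeR adjusted p = 5.29e-06), while its relative *KNAT1* had 17.3, 17.7 and 18.4 CPM in *cbp20* and 20.6, 21.1 and 20.9 CPM in WT (log2 -0.23) and lost its call in each of the 6 fits that left out a library. The YABBY genes *AFO* (log2 0.63) and *YAB2* (log2 0.61), which mark the lower leaf side, were higher, and *KAN3* (log2 -0.68) was lower. Of 20 KNOX and polarity genes, 7 were higher and 2 lower. Of 71 genes of the *NAC* family 6 were higher and 8 lower, shares near those of all genes, with the vessel regulators *VND1* (log2 1.13), *NAC076* (log2 1.27) and *VND7* (log2 0.84) among the higher ones. *NAC076* had 6.16, 6.58 and 7.55 CPM in *cbp20* and 3.08, 2.47 and 2.82 CPM in WT.

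Sugar and nitrogen genes were next. Starvation and senescence genes, which rise when sugar is short, were higher in 11 of 19 cases and lower in 1, lost without WT replicate 2 or 3 (median 0.43). *ASN1*, the dark-induced asparagine synthetase, had 95.4, 200.3 and 127 CPM in *cbp20* and 51.6, 58.1 and 62.7 CPM in WT (log2 1.29, edgeR adjusted p = 0.000281), and *SAG21*, a late embryogenesis protein of the mitochondrion, had 131, 149.8 and 159 CPM in *cbp20* and 80.0, 71.9 and 83.1 CPM in WT (log2 0.90). *DIN10*, a raffinose synthase gene, was at 249, 261 and 272 CPM in *cbp20* and 155, 164 and 172 CPM in WT (log2 0.67). All 3 lay higher in every *cbp20* library.

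Trehalose phosphate genes, whose product signals the sucrose level, were higher in 8 of 17 cases and lower in 2 (1 without WT replicate 1 or *cbp20* replicate 1 or 2), with the phosphatase gene *ATTPPA* at 66.3, 60.2 and 72.1 CPM in *cbp20* and 33.4, 31.2 and 32.6 CPM in WT (log2 1.03, edgeR adjusted p = 4.40e-07). Starch and sucrose enzymes were lower in 13 of 34 and higher in 3, such as the branching enzyme *SBE2.1* (123, 126 and 124 CPM in *cbp20*, 171, 188 and 183 CPM in WT, log2 -0.54, edgeR adjusted p = 2.71e-05) and the beta-amylase *CT-BMY* (log2 -0.47). Only 8 were lower without WT replicate 1, WT replicate 2 or *cbp20* replicate 3. The large ADP-glucose pyrophosphorylase subunit *APL4* had 17.6, 19.9 and 17.5 CPM in *cbp20* and 6.34, 7.36 and 8.77 CPM in WT (log2 1.29). Among nitrogen genes, of which 7 of 25 were higher (4 without *cbp20* replicate 3) and 1 lower (0 without WT replicate 1 or 2 or *cbp20* replicate 1), the nitrate reductase *NIA1* had 628, 608 and 626 CPM in *cbp20* and 339.7, 323 and 333 CPM in WT (log2 0.90, SE 0.06, edgeR adjusted p = 4.40e-07).

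Of 157 P450 genes, 51 were lower and 6 higher (median -0.18), beside 9.48% lower among all genes. The lower P450 genes included *CYP71B24* (5.14, 3.31 and 4.49 CPM in *cbp20*, 10.9, 10.7 and 9.14 CPM in WT, log2 -1.23) and *CYP96A4* (13.7, 11.1 and 14.1 CPM in *cbp20*, 30.5, 27.7 and 28.4 CPM in WT, log2 -1.15, edgeR adjusted p = 1.05e-06). Glutathione S-transferases were lower in 14 of 42 and higher in 2, with 8 lower without *cbp20* replicate 2. *GSTU25* had 12.8, 14.1 and 12.1 CPM in *cbp20* and 22.9, 29.6 and 27.6 CPM in WT (log2 -1.03), and the near-identical pair *GSTF6* (log2 -1.28) and *GSTF7* (log2 -0.96) followed. UDP-glucosyltransferases were lower in 10 of 44 and higher in 4, but 6, 5 and 6 were lower without WT replicate 2, *cbp20* replicate 1 and *cbp20* replicate 2, and 2 higher without *cbp20* replicate 3. Among flavonoid genes, *DFR* (4.65, 3.59 and 5.25 CPM in *cbp20*, 7.75, 8.23 and 9.14 CPM in WT, log2 -0.90) fell and its regulator *EGL3* (log2 0.84) rose. Of 18 flavonoid genes 4 were lower, 2 without WT replicate 1, and 2 higher, 1 without WT replicate 2 or 3 or *cbp20* replicate 1 or 3.

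Among other hormone genes, abscisic acid receptors were split, with 4 of 10 higher and 2 lower, *PYL4* at 58.1, 53.8 and 59.5 CPM in *cbp20* and 39.0, 35.0 and 37.3 CPM in WT (log2 0.62, edgeR adjusted p = 1.90e-05), *PYL5* at log2 0.68 and *PYR1* at 28.1, 31.3 and 27.4 CPM in *cbp20* and 38.1, 40.7 and 36.8 CPM in WT (log2 -0.41, edgeR adjusted p = 0.0011). The other lower receptor, *RCAR1* (log2 -0.35), lost its call without WT replicate 1 or 3 or *cbp20* replicate 1 or 2 and by DESeq2. The phosphatase gene *PP2CA*, which these receptors inhibit, was lower (log2 -0.44), and the factor *GBF3* was higher (log2 0.77). *AT1G29460*, a SAUR auxin gene, had 18.2, 18 and 16.3 CPM in *cbp20* and 5.76, 5.76 and 6.09 CPM in WT (log2 1.58, edgeR adjusted p = 9.73e-08), and *ARR9*, a type-A cytokinin response gene, had 55.6, 54.1 and 48.9 CPM in *cbp20* and 32.1, 34 and 30.6 CPM in WT (log2 0.71). The auxin-conjugating *GH3.9* rose by log2 1.34 and the gibberellin oxidase *GA20OX2* by log2 1.16.

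The lists that hold these genes had calls in both directions, with shares not far from the 10.2% higher and 9.48% lower of all genes. Of 55 *SAUR* genes 7 were higher (12.7%) and 6 lower (10.9%). The lower ones included *SAUR15* (log2 -1.37), *AT4G00880* (log2 -1.29), *AT2G21200* (log2 -1.23) and *SAUR24* (log2 -1.22). Only 4 were higher without WT replicate 1, 2 or 3 or *cbp20* replicate 1. Of 8 *GH3* genes 1 was higher and 1 lower, with 2 higher without WT replicate 2 and 0 lower without *cbp20* replicate 1. Of 15 cytokinin response regulators 2 were higher and 1 lower. There 1 was higher without WT replicate 2 or 3 or *cbp20* replicate 1 or 2, and 0 were lower without WT replicate 1 or 3 or *cbp20* replicate 1 or 3. Of 22 gibberellin genes 2 were higher (1 without WT replicate 2 or *cbp20* replicate 1 or 2) and 1 lower (2 without WT replicate 3, 3 without *cbp20* replicate 2).

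Of 29 mitochondrial genes tested 4 were lower, with a median of -0.42, and the list summed to 275, 295 and 313 CPM in *cbp20* and 411, 354 and 377 CPM in WT. The count was 1 to 5 when single libraries were left out and 7 under library size scaling. Of 99 plastid genes 12 were lower and 6 higher. *ATCG00020* had 77.3, 66.5 and 84.5 CPM in *cbp20* and 309, 235 and 212 CPM in WT (log2 -1.73, edgeR adjusted p = 4.14e-07), and *ATCG00490* had 48.7, 38.5 and 50.6 CPM in *cbp20* and 126, 98.2 and 82.2 CPM in WT (log2 -1.15). The lower plastid calls numbered 7 without WT replicate 1 or *cbp20* replicate 1, and the higher ones 0 to 9 when single libraries were left out. The libraries were made from poly(A) RNA, so the values of plastid and mitochondrial genes need not follow the total level of their transcripts.

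The largest changes among genes of at least 5 CPM on average with no overlap between groups, the 12 largest in each direction, kept their calls in each of the 6 fits that left out a library. *PGP10*, an ABC transporter of the P-glycoprotein type (chromosome 1, 3538333 to 3543925), had 12.2, 13.2 and 11.8 CPM in *cbp20*, against 0.544, 0.194 and 0.554 CPM in WT (log2 4.81, SE 0.21, edgeR adjusted p = 7.10e-09). *AGP30*, an arabinogalactan protein, had 13.4, 17.4 and 17.8 CPM in *cbp20* and 2.90, 2.37 and 1.11 CPM in WT (log2 2.92). *BT5*, a BTB and TAZ domain protein, had 85.5, 83.7 and 95.4 CPM in *cbp20* and 20.5, 19.1 and 26.2 CPM in WT (log2 2.01, edgeR adjusted p = 1.77e-08). Of the 12 rises, *MIR168a*, *MIR156c* and the 3 genes named beside *MIRNA* genes make up 5. The others were *AT2G07042* (log2 3.12, a non-coding RNA), *AT4G33720* (log2 2.53, of the CAP protein family), *ORP4C* (log2 2.42, an oxysterol-binding protein) and the uncharacterized *AT2G14247* (log2 2.29).

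Among the falls, *AT5G26270*, an uncharacterized protein gene (chromosome 5, 9206375 to 9208136), had 7.09, 6.62 and 17.7 CPM in *cbp20*, against 367, 369 and 305 CPM in WT (log2 -5.10, SE 0.25, edgeR adjusted p = 1.74e-08). *AT5G24240*, a phosphatidylinositol 4-kinase gamma-like gene (chromosome 5, 8230916 to 8234150), had 2.21, 2.94 and 4.05 CPM in *cbp20* and 43.1, 44.1 and 38.4 CPM in WT (log2 -3.81, edgeR adjusted p = 4.35e-09). In both genes the highest *cbp20* library stayed far below the lowest WT library. *QQS*, an orphan gene that affects starch content, had 5.29, 6.16 and 5.64 CPM in *cbp20* and 19.6, 25.0 and 18.5 CPM in WT (log2 -1.89), and *MBP1*, a myrosinase-binding protein gene, had 23.7, 23.5 and 25.9 CPM in *cbp20* and 74.7, 90.9 and 79.1 CPM in WT (log2 -1.75, edgeR adjusted p = 1.02e-08). Its neighbour *AT1G52000*, a mannose-binding lectin gene, had 95.6, 108 and 97.3 CPM in *cbp20* and 289.7, 359.6 and 305 CPM in WT (log2 -1.67). *AT5G59670*, a leucine-rich repeat kinase gene (log2 -1.68), and the uncharacterized *AT1G64360* (log2 -1.76) also fell, beside the phosphate genes *AT5G03545*, *IPS1* and *PS2*, the jasmonate gene *VSP2* and the plastid gene *ATCG00020*.

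The other mutants set these changes in context, and since all 3 share the WT libraries only direct contrasts between mutants were tested, in a fit of all 12 libraries. *CBP20* was at 12.3, 13.6 and 11.2 CPM in *cbp20*, against 38.2, 37.9 and 40.4 CPM in *cbp80* and 38.1, 40.2 and 42.2 CPM in *se-1*, where CPM values are those of the 12-library scaling. Between *cbp20* and *cbp80*, the large subunit mutant, 870 of 20882 genes (4.17%) were higher and 1251 (5.99%) lower in *cbp20*, 2121 (10.2%) in all. Against *se-1*, 1302 (6.24%) were higher and 1545 (7.40%) lower in *cbp20*, 2847 (13.6%) in all. The balance of directions depended on scaling: 41.0% of the differences from *cbp80* were higher in *cbp20*, and 52.9% under library size alone, and of those from *se-1* 45.7% and 60.2%. The difference counts fell without single libraries, most without *cbp80* replicate 2 (492 higher, 768 lower) and without *se-1* replicate 3 (830 higher).

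*PP2-A1*, a phloem lectin, had the clearest difference from *cbp80* among the genes named, with 29.1, 31.3 and 29.5 CPM in *cbp20*, against 2.18, 2.98 and 2.55 CPM in *cbp80*, 4.19, 4.81 and 3.69 CPM in *se-1* and 64.1, 61.9 and 70.7 CPM in WT. *cbp20* was higher than *cbp80* by log2 3.53 (SE 0.11, edgeR adjusted p = 3.47e-12) and higher than *se-1* by log2 2.82 (edgeR adjusted p = 4.25e-11). *COR15A* had 199, 130.0 and 131 CPM in *cbp20*, against 30.2, 31.2 and 28.8 CPM in *cbp80* (log2 2.35, edgeR adjusted p = 2.66e-07) and 54.5, 82.4 and 88.7 CPM in *se-1* (log2 1.03). *MLO12*, of the MLO family known for powdery mildew susceptibility, had 5.51, 7.23 and 7.84 CPM in *cbp20* and 33.9, 29.5 and 24.5 CPM in *cbp80* (log2 -2.11, edgeR adjusted p = 1.10e-05), and was at 5.60, 5.41 and 5.39 CPM in WT. In these genes the *cbp20* level lay nearer to WT than the *cbp80* level did.

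By list, cold and drought effectors held 10 of 25 members higher and 0 lower in *cbp20* than in *cbp80*, evening clock genes 7 of 12 higher, and starch and sucrose enzymes 14 of 34 higher and 2 lower. On the other side, 12 of 19 starvation genes, 13 of 57 *WRKY* genes, 6 of 13 morning clock genes and 7 of 18 flavonoid genes were lower in *cbp20* than in *cbp80*. For *LOX2* the difference from *cbp80* was log2 1.34 (SE 0.14, edgeR adjusted p = 1.77e-05), and 8 of 23 jasmonate genes were higher and 2 lower in *cbp20*.

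Primary microRNA transcripts were lower in *cbp20* than in *se-1* in 20 of 34 cases and lower than in *cbp80* in 8. *MIR156c* differed by log2 -1.20 from *se-1* (edgeR adjusted p = 3.40e-07) and by -0.72 from *cbp80* (edgeR adjusted p = 9.90e-05), and *MIR168a* by log2 -1.5 and -0.57 (edgeR adjusted p = 1.30e-06 and 0.012). *MIR169a* had 2.5, 2.80 and 2.74 CPM in *cbp20*, against 9.38, 8.05 and 8.56 CPM in *se-1* (log2 -1.70, edgeR adjusted p = 7.91e-05) and 3.47, 4.10 and 2.55 CPM in *cbp80*. The target genes of the *SPL* family were lower in *cbp20* than in *se-1* in 6 of 8 cases. Photosystem genes were lower than in *se-1* in 17 of 48 cases and iron genes in 6 of 24, phosphate genes were higher in 9 of 25 and lower in 1, with *IPS1* at log2 1.49 (edgeR adjusted p = 0.00307), and heat shock genes were higher in 11 of 38 cases.

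**Figure D5:**
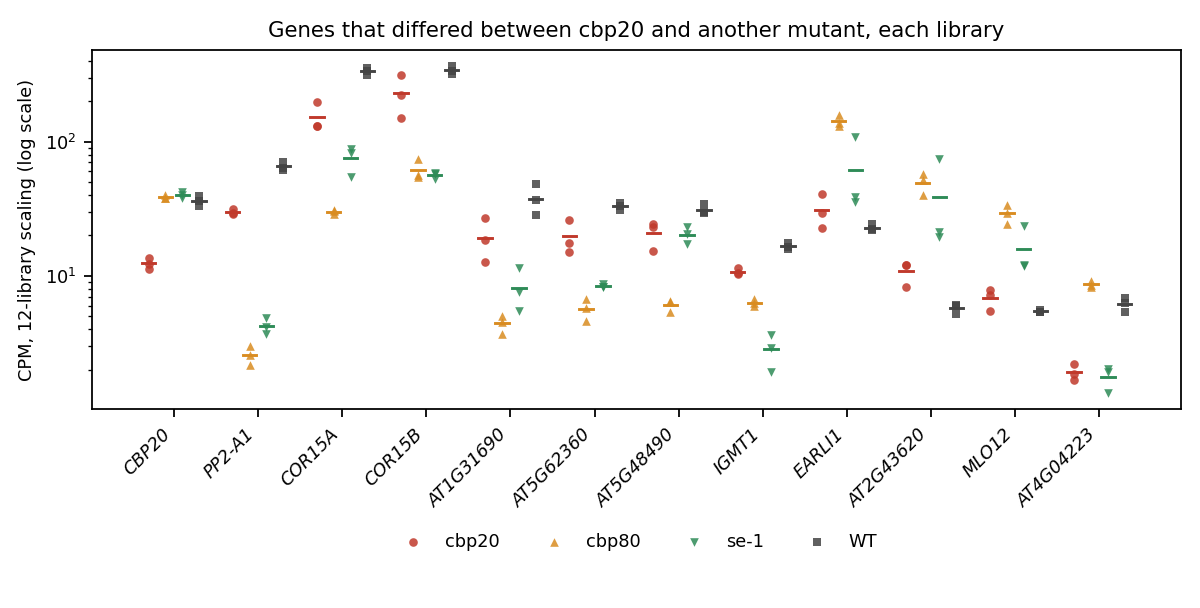
CPM on a log axis (y) of 12 genes (x) in the *cbp20*, *cbp80*, *se-1* and WT libraries (left to right within each gene, 3 points each), with a bar at each group's mean. *PP2-A1* lies at 29.1 to 31.3 CPM in *cbp20* and at 2.18 to 2.98 CPM in *cbp80*, below the 61.9 to 70.7 CPM of WT in both.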

How the data were processed

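RNA-seq of poly(A) RNA from 12 seedling pools was analysed, 3 each of *cbp20*, *cbp80*, *se-1* and WT. Per the labels, rRNA and tRNA sequences were screened away with Bowtie2 2.1.0. The authors aligned the remaining pairs with TopHat2 2.1.1 to TAIR10 and deposited whole-number counts per gene made with featureCounts, in which pairs with several locations or several genes were left out and strand was not used. The deposited tables of comparisons by DESeq2 1.14.1 hold the authors' fold changes and p-values and were not used.

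Counts were tested with edgeR 4.0.16 (quasi-likelihood test, TMM) in R 4.3.3 on the 6 *cbp20* and WT libraries, for genes reaching 10 counts in 3 or more libraries, with an adjusted p threshold of 0.05. The standard error is the log2 fold change divided by the root of the F statistic. Differences between mutants came from contrasts in a fit of all 12 libraries. Symbols and coordinates come from the RefSeq annotation of TAIR10.1. P-values measure the spread between the seedling pools. DESeq2 1.42.0, other scalings and filters, the 12-library fit, the replicate block and leaving out each library were alternatives.

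The genes and the 76 lists were chosen with earlier results of these data known. Named were *CBP20*, *ABH1* and *SE*, the 12 largest changes in each direction at a mean of at least 5 CPM without overlap, up to 4 called members per list and direction at 1 CPM or more, lists of 8 or fewer members, and the 6 largest differences from each mutant in each direction. Other genes with values were chosen after these were seen.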

Additional observations from a re-analysis of the deposited data

Results flagged for a closer look

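The level of 2121 genes differed between *cbp20* and *cbp80*, and that of 2847 genes between *cbp20* and *se-1*, by the test of the difference in the 12-library fit (edgeR adjusted p under 0.05). The genes named here are those with the largest differences in each direction, and the values are log2 differences, *cbp20* minus the other mutant.

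Against *cbp80*, higher in *cbp20* were *PP2-A1* (3.53), *COR15A* (2.35), *AT1G31690*, a copper amine oxidase gene (2.14), *COR15B* (1.89), *AT5G62360* (1.78) and *AT5G48490* (1.77). Lower were *AT4G12490* (-6.26), *AT4G12500* (-5.05), *EARLI1* (-2.21), *AT2G43620* (-2.21), *AT4G04223* (-2.16) and *MLO12* (-2.11). *EARLI1*, *AT4G12490* and *AT4G12500* lie side by side and are alike in sequence, so that read pairs could be lost between them. *AT4G12490* had 0.22, 0.226 and 0.0537 CPM in *cbp20*, against 20.2, 9.28 and 12.5 CPM in *cbp80* and 6.15, 2.27 and 40.3 CPM in *se-1*, with 1.33, 1.33 and 0.317 CPM in WT.

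Against *se-1*, higher in *cbp20* were *PP2-A1* (2.82), *AT2G16005* (2.41), *COR15B* (2.03), *AT1G80130* (1.92), *IGMT1*, an indole glucosinolate methyltransferase gene (1.91), and *IMPL1*, a myo-inositol monophosphatase-like gene (1.89). Lower were *AT4G12490* (-6.46), *AT3G02480* (-2.45), *AT2G43620* (-1.84), *BCB*, a blue copper protein gene (-1.83), *CBP20* itself (-1.70) and *MIR169a* (-1.70). For *AT4G12490* and *AT2G43620* the *se-1* libraries disagreed, with *AT2G43620* at 8.30, 12.1 and 12.1 CPM in *cbp20* and 19.4, 21.4 and 74.8 CPM in *se-1*. *IMPL1* had 47.7, 46.4 and 42.9 CPM in *cbp20*, against 13.2, 11.8 and 12.2 CPM in *se-1*.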

How the results depend on the processing

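Against 2090 higher and 1941 lower genes, RLE scaling gave 2096 and 1937, no filter 2315 and 2088, 10 counts in every library 1946 and 1821, edgeR on all 12 libraries 2309 and 2060, and DESeq2 1699 and 1425 on 6 and 2110 and 1708 on 12 libraries. With 10 counts in every library the 2-fold calls fell to 217 higher and 167 lower. Leaving out single libraries gave 1484 to 1895 higher and 1251 to 1702 lower genes, lowest without *cbp20* replicate 1 for the lower ones. Against *cbp80* it gave 492 to 693 higher and 768 to 1102 lower genes, and against *se-1* 830 to 1126 higher and 1095 to 1334 lower. The causes were not tested.

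With a replicate block 2418 genes were higher and 2228 lower. Deviations of same-numbered *cbp20* and WT libraries correlated at 0.065, 0.051 and 0.074, and those of other *cbp20* and WT pairs at -0.088 to 0.024. Each *cbp20* library thus correlated best with its own WT number, weakly, a hint from the data and not the design. The labels do not say what the numbers share, and the main test used no pairing. Differences with the block numbered 936 and 1342 against *cbp80* and 1372 and 1639 against *se-1*.

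Of the genes not called, *FER1* ranged from -0.32 to 0.010 and *GI* from -0.109 to 0.15 (log2) when single libraries were left out, changing sign without *cbp20* replicate 2, and *PHR1* (AT4G28610) had -0.011 under library size scaling. A floor of 0.111 to 0.162 CPM limits *MIRNA* and snRNA genes, whose WT values lie near it.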
